A study of Mus musculus with 18 samples.

Results

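The genes described here encode the microtubule motors of the cell, the kinesins and cytoplasmic dynein, with the light chains of both and the dynactin complex. They were taken by name from the gene tables: every gene called Kif with a number, Kifc, Kifap3, Klc1 to Klc4, Dync1 or Dync2, Dynl, or Dctn1 to Dctn6, which gave 67 of 38924 genes. The naming rule itself uses no measured value.

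Kinesins carry vesicles, mitochondria and protein complexes along microtubules, mostly toward the axon terminal, whereas dynein, activated by dynactin and by adaptor proteins, carries organelles, signalling endosomes and worn material back to the cell body. A motor neuron depends on both because its axon is very long and nearly all of its protein is made in the cell body. Other kinesins of the family build and move the spindle of dividing cells, and most of these are scarce in cells that no longer divide.

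The study isolated ribosome-bound RNA from the spinal cord of mice aged 8 weeks (strain background B6;CASTxB6.129) that all carried 1 copy of an HA-tagged Rpl22 ribosomal protein allele. In Cre mice, Chat-Cre, a recombinase driven by the choline acetyltransferase gene, turns on the tag in cholinergic cells, which include motor neurons but also other cholinergic neurons of the cord; NoCre mice lack the recombinase, so that the RNA pulled down from them is background from the whole cord. Within each, mice were wild type for Gars, the glycyl-tRNA synthetase gene (WT), or heterozygous for the P278KY mutation, a model of an inherited peripheral neuropathy. This gave Cre WT (Chat+/-, Gars+/+, n = 4), Cre P278KY (Chat+/-, GarsP278KY/+, n = 3), NoCre WT (Chat+/+, Gars+/+, n = 5) and NoCre P278KY (Chat+/+, GarsP278KY/+, n = 6), 18 libraries in 4 groups, each library named for 1 mouse.

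Total counts ran from 14659535 to 24028691 in the 7 Cre libraries and from 8177836 to 14450181 in the 11 NoCre libraries. Mitochondrial ribosomal RNA took 1.36% to 4.88% of the counts in Cre libraries and 24.2% to 53.8% in NoCre libraries, and protein-coding genes took 63.6% to 87.0% and 23.0% to 60.4%. Chat stood at 122 ± 44.0 (SD, n = 4) CPM (counts scaled to a common library size) in Cre WT and 7.90 ± 2.92 (n = 5) in NoCre WT, and at 105 ± 12.6 (n = 3) in Cre P278KY and 2.88 ± 0.616 (n = 6) in NoCre P278KY. All 9 cholinergic markers examined were higher in Cre than in NoCre libraries of both genotypes. The background was not alike: their summed CPM ran from 77.8 to 90.5 in NoCre WT and from 34.9 to 49.2 in NoCre P278KY. Between these 2 groups, 2 of the 9 were called lower in P278KY, among 4 genes called in all. The 10 markers of oligodendrocytes and the 10 of microglia were all lower in Cre than in NoCre libraries. Of the library names, the index sequences and sample numbers start again after the first 10 libraries. Those 10 are called pool 1 here and the other 8 pool 2; the labels do not call them batches. All 3 Cre P278KY libraries are in pool 1, whereas the other groups are spread over both.

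The design poses 3 questions. The enrichment, Cre against NoCre within a genotype, asks which motor genes are more or less abundant on tagged ribosomes than in the background. The genotype difference among Cre libraries asks what the mutation changes there, and the same difference among NoCre libraries gives its level in the background. A value is given as CPM scaled by the trimmed mean of M-values (TMM) of all 18 libraries unless stated, a log2 fold change as the first group over the second, and a gene was called where edgeR's quasi-likelihood test gave an adjusted p under 0.05 (Benjamini-Hochberg over all genes tested). In such bulk pull-downs, fewer cells of a type and less RNA per cell cannot be told apart, and sequencing reads made by PCR without molecular identifiers are not independent molecules.

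Of the 67 motor genes, 64 passed the filter on low counts; Kif2b, Kif2c and Kif12 did not. In WT mice 25 of the 64 were called higher in Cre than in NoCre libraries, 22 lower, and 17 were not called. Of all 17133 genes tested, 28.5% were called higher and 31.2% lower. The median log2 fold change of the motor genes was 0.03, against -0.12 for all genes. In P278KY mice 27 were called higher, 20 lower and 17 not called, beside 28.2% higher and 31.2% lower among all genes, with a median of 0.18. The members ranged from Dctn3 (log2 fold change 2.72) to Kif14 (-3.63) in WT mice. All 5 dynein 1 and all 6 dynactin subunits were called higher in both genotypes, and the mitotic kinesins, those of the spindle, were called lower or not called. With library sizes counted without ribosomal RNA genes in place of TMM, under which the median of all genes in WT mice was -0.51 in place of -0.12, 16 motor genes were called higher; Kif1a, Kif3c, Dync1h1, Dync1i2, Dync1li2 and Dctn4 were then not called in either genotype.

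**Figure D1:**
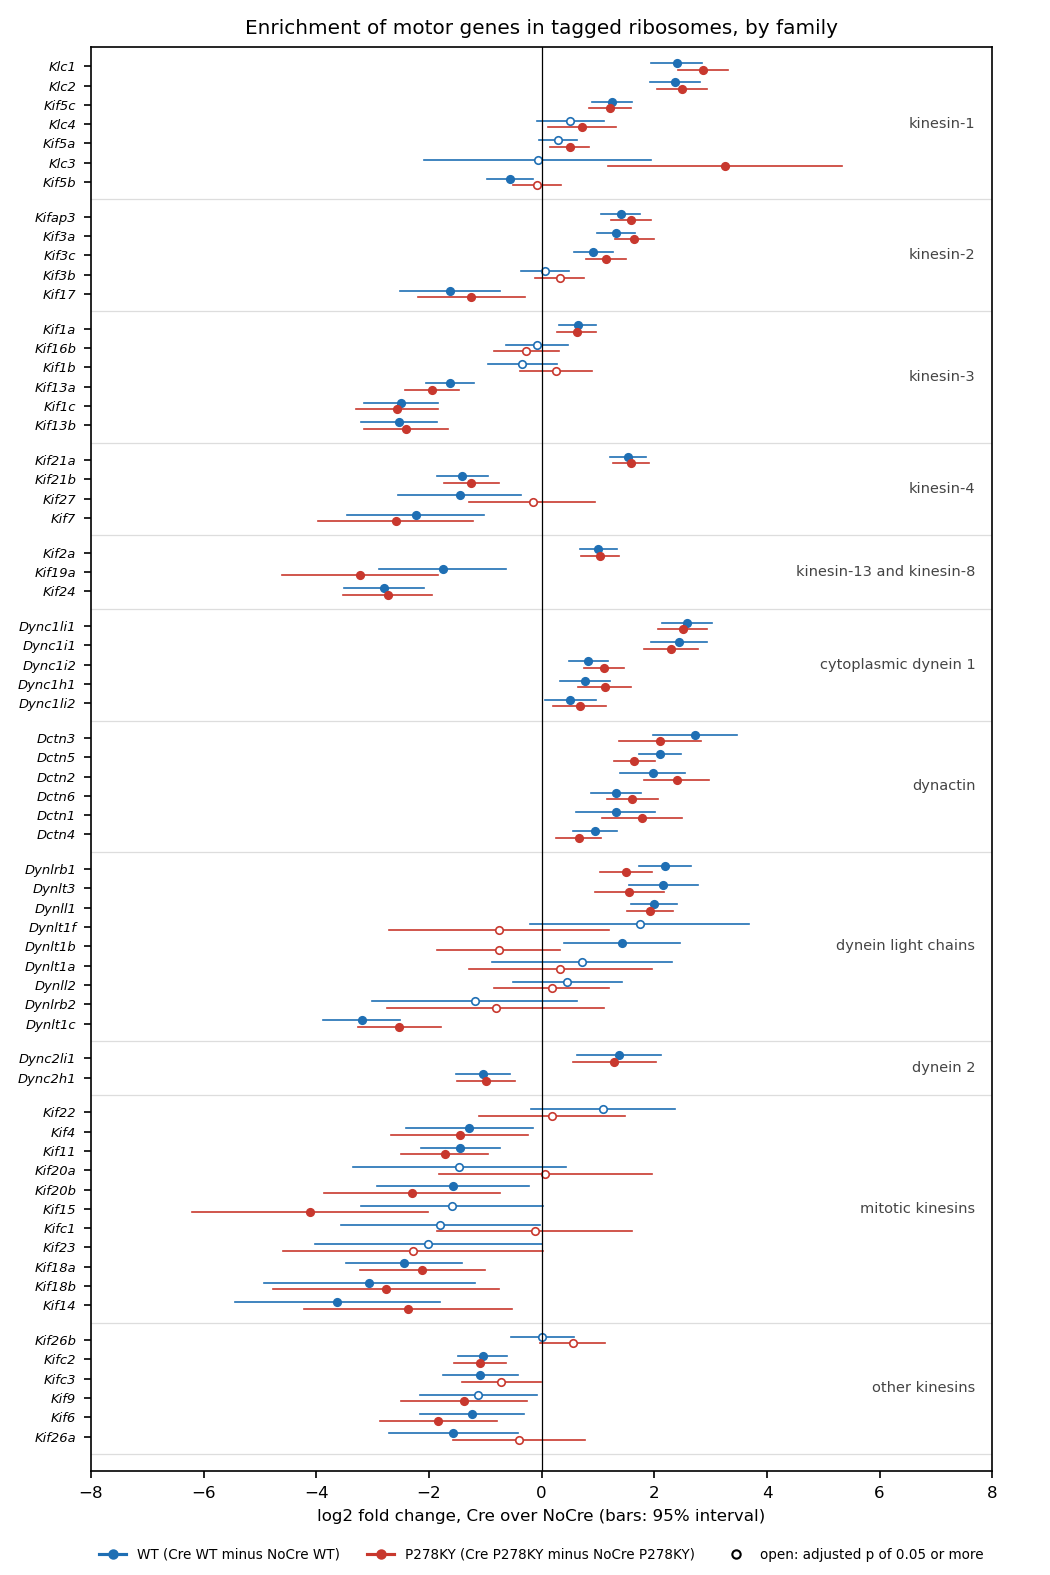
Log2 fold change of Cre over NoCre libraries for the 64 motor genes tested, by subfamily, in WT and P278KY mice; points are the fitted values, bars their 95% intervals and the vertical line no difference. All 5 dynein 1 and all 6 dynactin subunits lie to the right of 0 in both genotypes, and most mitotic kinesins to the left.

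Kinesin-1, the main motor of fast axonal transport toward the terminal, is a pair of heavy chains (Kif5a, Kif5b or Kif5c) with a pair of light chains (Klc1 to Klc4) that bind cargo. Of its 7 genes, 3 rose in WT mice (Kif5c, Klc1 and Klc2) and 1 fell (Kif5b). In P278KY mice 6 rose and none fell. The 57.1% called in WT and 85.7% in P278KY mice stand beside 59.7% and 59.4% of all genes. Of the 6, Klc3 passed the filter only through the Cre P278KY libraries, where it was highest. The calls of Kif5a and Klc4 were lost under several other settings. None of the 7 was called for a difference between the genotypes in this enrichment. Klc1 read 1231, 1005, 655 and 672 CPM in the 4 Cre WT libraries and 140, 136, 144, 251 and 176 CPM in the 5 NoCre WT libraries. The groups did not overlap, and the log2 fold change was 2.40 (SE 0.213, adjusted p = 9.63e-09). Klc1 rose by 2.86 (SE 0.213, adjusted p = 7.95e-10) in P278KY mice, from 118 to 166 CPM in the NoCre libraries to 1044, 880 and 1019 CPM in the Cre libraries. Klc2 read 774, 584, 351 and 570 CPM in Cre WT against 92.2 to 148 CPM in NoCre WT, a difference of 2.37 on the log2 scale (SE 0.215, adjusted p = 1.32e-08), and its change in P278KY mice was 2.49 (SE 0.214, adjusted p = 5.81e-09). Both light chains were thus far above the background in every Cre library.

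Of the 3 heavy chains, 1 was called higher and 1 lower in WT mice. Kif5c, the neuronal heavy chain abundant in motor neurons, read 958, 643, 1051 and 753 CPM in Cre WT and 381, 440, 338, 335 and 298 CPM in NoCre WT. All Cre libraries were above all NoCre libraries, and the log2 fold change was 1.25 (SE 0.175, adjusted p = 3.67e-06) in WT and 1.21 (SE 0.178, adjusted p = 8.44e-06) in P278KY mice. Kif5a, the neuronal heavy chain mutated in forms of hereditary spastic paraplegia and of motor neuron disease, read 832, 722, 783 and 730 CPM in Cre WT and 615, 611, 530, 698 and 686 CPM in NoCre WT. These groups did not overlap but the difference of 0.29 (SE 0.160) did not pass the test (adjusted p = 0.124). In P278KY mice Kif5a rose by 0.50 (SE 0.167, adjusted p = 0.0141), with 1 NoCre library at 787 CPM inside the range of the Cre libraries (779 to 853 CPM). Without Cre P278KY replicate 1 that difference was 0.48 (adjusted p = 0.054).

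Kif5b, the heavy chain made in most cell types, read 329, 225, 354 and 344 CPM in Cre WT and 462, 656, 425, 438 and 327 CPM in NoCre WT. It fell by 0.56 on the log2 scale (SE 0.198, adjusted p = 0.0184), with 1 NoCre library inside the Cre range. That call was lost without Cre WT replicate 2 (-0.43, adjusted p = 0.0752), without NoCre WT replicate 2 (-0.40, adjusted p = 0.068) and within pool 2 (-0.20, adjusted p = 0.584). It was also lost with library size only in place of TMM and with no filter on low counts. In P278KY mice Kif5b read 431, 423 and 453 CPM in Cre and 366 to 583 CPM in NoCre libraries, a difference of -0.09 (SE 0.207, adjusted p = 0.732). The difference between the genotypes in this enrichment, tested as an interaction, was 0.475 (adjusted p = 0.572).

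The remaining light chains were scarce. Klc4 read 8.87 to 14.0 CPM in Cre WT and 3.58 to 12.2 CPM in NoCre WT, and its difference of 0.51 did not pass (adjusted p = 0.131); in P278KY mice it was 0.71 (adjusted p = 0.0398). The P278KY call was lost when any of several single libraries was left out, the highest adjusted p being 0.122 without Cre P278KY replicate 1. The WT value rose to 0.69 (adjusted p = 0.045) without NoCre WT replicate 4. Klc3 never exceeded 1.26 CPM in any library. It read 0.948, 1.26 and 1.1 CPM in Cre P278KY and 0 to 0.419 CPM in NoCre P278KY (log2 fold change 3.26, SE 1.005, adjusted p = 0.00851), and 0.122 to 0.498 CPM in Cre WT. Because the Cre P278KY libraries alone carried Klc3 past the filter on low counts, this call is no support for a rise.

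Because the deposited TPM (abundance of transcripts per length) are divided by length, the make-up of a set of close relatives can be compared within a library. Kif5c took 49.0% to 67.0% of the summed TPM of the 3 heavy chains in Cre WT (mean 56.5% ± 8.96, SD, n = 4) and 24% to 46.4% in NoCre WT (31.9% ± 8.72, n = 5). Kif5b took 11.2% to 18.6% in Cre WT (14.8% ± 3.68) and 24.8% to 41.2% in NoCre WT (32.6% ± 6.84). Neither pair of ranges overlapped; an exact two-sided permutation test over libraries gave p = 0.0159 for Kif5c and p = 0.00794, the smallest possible here, for Kif5b. Adjusted over the 64 shares and comparisons tested, both stood at 0.0635, above the threshold. The transcript length of Kif5c, itself an estimate, varied from 1927 to 5843 bases in Cre WT and from 1988 to 6587 bases in NoCre WT. In each of these groups the Kif5c share was highest in the library where that length was shortest, so the share is uncertain. In P278KY mice Kif5c took 46.9% ± 2.89 (n = 3) against 26.1% ± 4.30 (n = 6), and Kif5b 19.6% ± 0.650 against 35.6% ± 2.24, each with an exact permutation p of 0.0119. Among the light chains, Klc1 took 40.9% ± 5.14 in Cre WT and 38.8% ± 5.82 in NoCre WT (exact permutation p = 0.571). Klc4, the scarcer chain, took 0.380% to 0.573% in Cre WT and 0.822% to 2.10% in NoCre WT, with no overlap (exact permutation p = 0.0159, adjusted over the shares 0.0635).

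**Figure D2:**
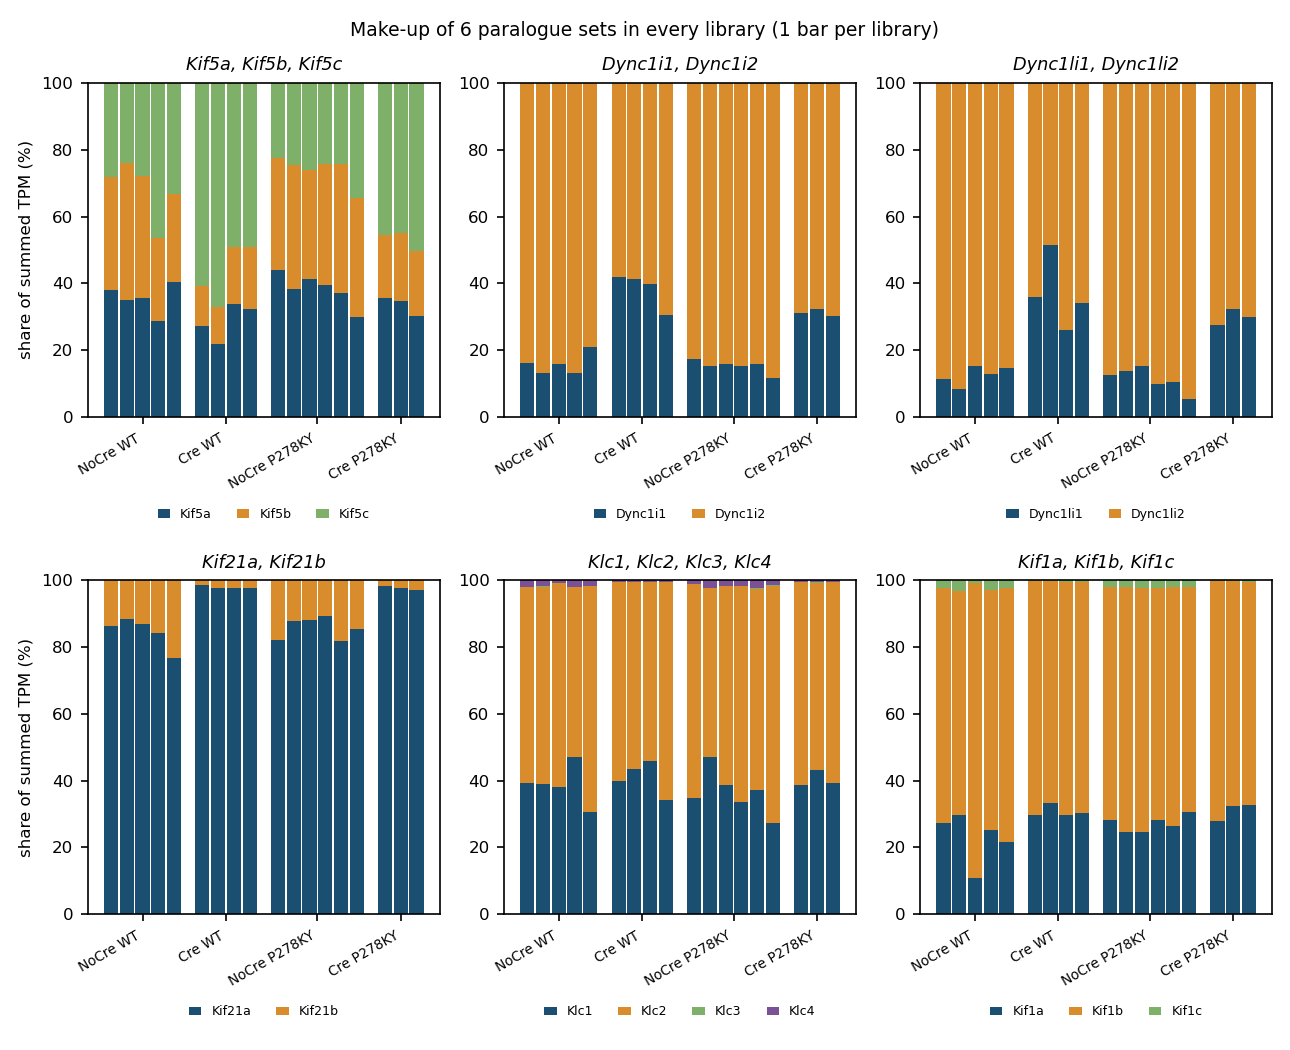
Share of the summed TPM (%) taken by each member of 6 sets of related motor genes, with 1 bar per library and the 4 groups side by side. Kif5c holds 49.0% to 67.0% of the heavy chain TPM in the Cre WT libraries and 24% to 46.4% in the NoCre WT libraries, and Dync1i1 and Dync1li1 also take larger shares in Cre than in NoCre libraries.

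The promoters of Klc1 and Kif5c are shown because both hold the full palindrome TGACGTCA, the cyclic AMP response element bound by the CREB family. RefSeq (GRCm38.p6) gave promoters for 51 of the 67 genes, 58 in all (Klc2 was not among them), and the 250 bases before each start were searched on both strands. The element, which is its own reverse complement, was present in 4 of the 58 (6.90%) and in 508 of 32851 promoters of all genes (1.55%). Those 4 belong to Klc1, Kif5c and Dctn3, which were called higher in the WT enrichment, and to Kif17, which was called lower. So the letters occur with both directions of change, and a match is a description of the sequence and not of a bound site. The 4 are shown 5′ to 3′, each on the strand of its gene and ending at the base before the start, with the element in capitals: Klc1 is at chr12:111758618-111758867 on the plus strand, Kif5c at chr2:49619036-49619285 on the plus strand, Dctn3 at chr4:41723164-41723413 on the minus strand and Kif17 at chr4:138262001-138262250 on the plus strand.
Klc1: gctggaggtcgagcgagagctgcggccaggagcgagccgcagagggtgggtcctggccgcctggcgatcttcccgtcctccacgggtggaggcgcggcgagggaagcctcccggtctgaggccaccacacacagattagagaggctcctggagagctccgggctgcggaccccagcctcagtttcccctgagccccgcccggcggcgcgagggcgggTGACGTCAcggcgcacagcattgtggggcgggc
Kif5c: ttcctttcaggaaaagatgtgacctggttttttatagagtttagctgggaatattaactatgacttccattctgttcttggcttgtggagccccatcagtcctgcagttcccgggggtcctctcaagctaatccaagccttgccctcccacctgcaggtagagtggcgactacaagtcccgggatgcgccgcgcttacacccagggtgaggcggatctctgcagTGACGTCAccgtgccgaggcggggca
Dctn3: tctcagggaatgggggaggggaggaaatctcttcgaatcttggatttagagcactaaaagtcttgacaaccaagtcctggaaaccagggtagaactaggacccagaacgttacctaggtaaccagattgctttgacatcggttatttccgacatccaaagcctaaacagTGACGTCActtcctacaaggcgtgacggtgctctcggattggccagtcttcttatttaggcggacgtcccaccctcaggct
Kif17: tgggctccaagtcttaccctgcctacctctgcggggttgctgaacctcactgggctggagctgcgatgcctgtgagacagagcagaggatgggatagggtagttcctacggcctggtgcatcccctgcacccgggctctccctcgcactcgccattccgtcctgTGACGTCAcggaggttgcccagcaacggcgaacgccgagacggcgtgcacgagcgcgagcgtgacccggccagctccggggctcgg
In these windows the element lies 33 bases before the start in Klc1, 26 in Kif5c, 81 in Dctn3 and 86 in Kif17.

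Kinesin-2 is a pair of different heavy chains, Kif3a with Kif3b or Kif3c, joined to cargo by Kifap3; it serves cilia and also carries vesicles in axons. Of its 5 genes 3 rose in each genotype and 1 fell, so that 80% were called, beside 59.7% of all genes in WT and 59.4% in P278KY mice. Kif3a read 206, 182, 181 and 159 CPM in Cre WT and 68.5, 68.9, 75.9, 60.2 and 91.8 CPM in NoCre WT, a difference of 1.32 on the log2 scale (SE 0.163, adjusted p = 7.15e-07); in P278KY mice it was 1.65 (SE 0.165, adjusted p = 5.46e-08). Kifap3 read 226 to 287 CPM in Cre WT and 79.9 to 110 CPM in NoCre WT (1.40, SE 0.167), and Kif3c 105 to 142 CPM and 55.6 to 84.2 CPM (0.92, SE 0.169). None of these ranges overlapped. Kif3b, the partner of Kif3a in cilia, read 35.9, 26.9, 36.9 and 28.5 CPM in Cre WT and 23.5, 34.0, 25.4, 36.3 and 35 CPM in NoCre WT. Its groups overlapped throughout (0.06, 95% interval -0.37 to 0.49, adjusted p = 0.816), and its P278KY difference of 0.32 (adjusted p = 0.198) reached 0.50 (adjusted p = 0.0385) without NoCre P278KY replicate 6 and 0.61 (adjusted p = 0.0162) within pool 1. Kif17, a homodimeric kinesin-2 of dendrites and cilia, was lower in both genotypes: it read 0.809 to 1.86 CPM in Cre WT and 3.14 to 5.67 CPM in NoCre WT (-1.62, SE 0.433, adjusted p = 0.00287). It was called at -1.25 (adjusted p = 0.0229) in P278KY mice.

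Kinesin-3 carries synaptic vesicle precursors, dense core vesicles and lysosome-related organelles. Kif1a, its neuronal member, was the only one of 6 called higher in either genotype, and Kif1c, Kif13a and Kif13b were called lower in both. Kif1a averaged 1331 ± 160 CPM (SD, n = 4) in Cre WT and 855 ± 143 CPM (n = 5) in NoCre WT, without overlap, which is 0.64 on the log2 scale (SE 0.159, adjusted p = 0.00166); in P278KY mice it was 0.62 (adjusted p = 0.00294). Kif1c, which is made widely outside neurons, read 4.67, 12, 11 and 12 CPM in Cre WT and 43.2, 48.3, 37.1, 80.1 and 72.5 CPM in NoCre WT (-2.50, SE 0.316, adjusted p = 1.02e-06). Kif13b and Kif13a fell by 2.53 (SE 0.325) and 1.63 (SE 0.207) in WT mice. Kif1b, the motor of mitochondria and vesicle precursors and the most abundant kinesin-3 per length, was not called. It read 1325, 947, 1243 and 1082 CPM in Cre WT and 885, 850, 3393, 1076 and 1081 CPM in NoCre WT. NoCre WT replicate 3 stood far above every other library, and without it the difference moved from -0.34 (adjusted p = 0.326) to 0.24 (adjusted p = 0.212).

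Of the kinesin-4 genes, Kif21a rose and Kif21b fell, although both encode microtubule-growth regulators of neurons. Kif21a read 726, 572, 585 and 506 CPM in Cre WT against 189 to 223 CPM in NoCre WT (1.53, SE 0.152, adjusted p = 3.89e-08). Kif21b read 13.2 to 21.4 CPM against 35.5 to 69 CPM (-1.41, SE 0.217, adjusted p = 1.19e-05). Neither pair overlapped, and the P278KY values were 1.58 and -1.25. By TPM, Kif21a made up 97.5% to 98.6% of the pair in Cre WT and 76.8% to 88.4% in NoCre WT (exact permutation p = 0.00794, adjusted over the shares 0.0635). Kif2a, a kinesin-13 that shortens microtubules, rose by 1.01 (SE 0.159) in WT and 1.04 in P278KY mice. Kif24, Kif19a and Kif7, which act in cilia, were at most 2.95 CPM in any Cre library and were called lower in both genotypes, by 2.79, 1.76 and 2.23 on the log2 scale in WT mice and by 2.73, 3.22 and 2.59 in P278KY mice. Kif7 was tested only through its NoCre counts, so it could hardly have been called higher. Summed CPM of 9 markers of ciliated ependymal cells ran from 8.74 to 18.2 in Cre and from 12.2 to 36.9 in NoCre libraries. Of the 7 markers tested, 3 were called lower in WT and 5 in P278KY mice. The part of these cells in the lower kinesin values was not tested.

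**Figure D3:**
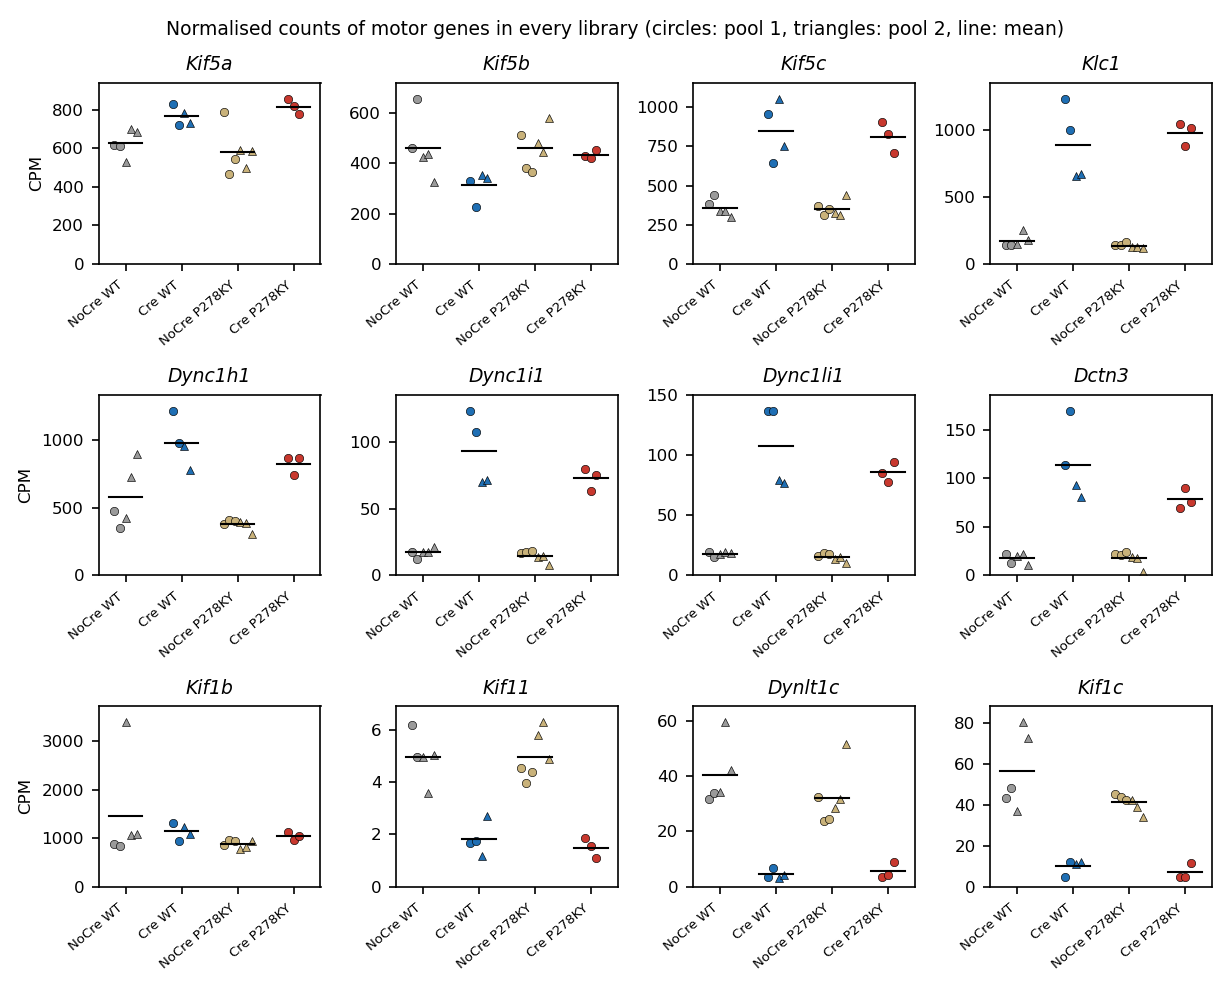
CPM of 12 motor genes in each of the 18 libraries by group, on linear axes that start at 0; circles are pool 1 libraries, triangles pool 2 libraries and lines group means. Klc1, Dync1i1, Dync1li1 and Dctn3 separate Cre from NoCre libraries fully, and Kif1b reads 3393 CPM in 1 NoCre WT library.

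Cytoplasmic dynein 1 is built from the heavy chain Dync1h1, which moves, intermediate chains (Dync1i1, Dync1i2), light intermediate chains (Dync1li1, Dync1li2) that hold adaptors, and small light chains. All 5 Dync1 genes rose in both genotypes, with a median log2 fold change of 0.83 in WT and 1.12 in P278KY mice. The gain was unequal within each pair of chains. Dync1i1, the neuronal intermediate chain, read 123, 108, 70.0 and 71.4 CPM in Cre WT and 17.1, 12.5, 17.2, 17.7 and 21.2 CPM in NoCre WT (2.44, SE 0.240, adjusted p = 3.53e-08). Dync1i2, its widely made counterpart, read 170, 137, 98.9 and 141 CPM and 69.7 to 83.9 CPM (0.83, SE 0.169, adjusted p = 0.000266). Dync1i1 therefore held 30.5% to 41.8% of the intermediate chain TPM in Cre WT and 13% to 20.8% in NoCre WT. In P278KY mice its share was 31.1% ± 1.1 (n = 3) against 15.2% ± 1.84 (n = 6).

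Among the light intermediate chains the gap was wider. Dync1li1 read 137, 137, 79.6 and 77.0 CPM in Cre WT and 15.6 to 19.7 CPM in NoCre WT (2.58, SE 0.215, adjusted p = 4.21e-09), and rose by 2.50 (SE 0.212) in P278KY mice. Dync1li2 read 447, 237, 416 and 274 CPM against 271, 316, 177, 247 and 197 CPM (0.51, SE 0.218, adjusted p = 0.0485). The Dync1li2 groups overlapped, and 9 of 18 single libraries ended this WT call when left out, with adjusted p up to 0.198 (Cre WT replicate 1 left out); in P278KY mice it was 0.68 (adjusted p = 0.0138), and 0.62 (adjusted p = 0.0616) without Cre P278KY replicate 1. Dync1li1 made up 36.8% ± 10.6 of the pair's TPM in Cre WT (n = 4) and 12.5% ± 2.80 in NoCre WT (n = 5). For Dync1i1 and Dync1li1 the exact permutation p was 0.00794 in WT and 0.0119 in P278KY mice, the smallest possible, and 0.0635 after adjustment over the shares.

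Dync1h1, mutated in a dominant spinal muscular atrophy, read 1214, 975, 954 and 776 CPM in Cre WT and 472, 350, 426, 729 and 899 CPM in NoCre WT. It rose by 0.77 (SE 0.219, adjusted p = 0.00466) although NoCre WT replicate 5 lay inside the Cre range. In P278KY mice the groups were apart, at 741 to 867 CPM and 308 to 410 CPM, and Dync1h1 rose by 1.12 (SE 0.224, adjusted p = 0.000249). NoCre WT replicates 4 and 5, the highest of their group, also had its lowest shares of protein-coding counts, 23.0% and 33.8%; without both, a choice made after seeing the data, the WT difference was 1.21 (adjusted p = 2.1e-05). Within pool 2 it was 0.32 (adjusted p = 0.446), and the WT calls of Dync1i2 (0.63, adjusted p = 0.0875), Dctn4 (0.86, adjusted p = 0.0538) and Kif1a (0.42, adjusted p = 0.233) were also lost there.

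The light chains of dynein, small proteins that also bind many partners outside the motor, divided. Of 9 genes, 4 rose and 1 fell in WT mice, and 3 rose and 1 fell in P278KY mice. The 55.6% and 44.4% called were below the 59.7% and 59.4% of all genes called. Dynll1 (LC8) rose by 2.00 (SE 0.196) from 29.0 to 35.5 CPM in NoCre WT to 94.1 to 177 CPM in Cre WT. Dynlrb1, the roadblock chain, read 377, 372, 160 and 217 CPM in Cre WT against 44.2 to 76.7 CPM in NoCre WT (2.18, SE 0.225, adjusted p = 6.80e-08); in P278KY mice it read 172, 149 and 200 CPM against 52.3 to 68.8 CPM (1.50, SE 0.225, adjusted p = 1.02e-05). Dynlt3 rose by 2.16 (SE 0.295) and by 1.56 (SE 0.294). In all 3 the Cre and NoCre groups were apart. Dynll2, the second LC8 gene, was not called in either genotype (0.46, adjusted p = 0.403, and 0.18, adjusted p = 0.765), with 95.3 to 374 CPM in Cre WT and 78.7 to 258 CPM in NoCre WT.

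Dynlt1c was called lower: it read 3.55, 6.84, 3.26 and 4.09 CPM in Cre WT and 31.7, 33.9, 34.3, 59.4 and 42.0 CPM in NoCre WT (-3.19, SE 0.331, adjusted p = 7.30e-08). Dynlt1b went the other way in WT mice (1.42, SE 0.50, adjusted p = 0.0181) and was not called in P278KY mice (-0.76, adjusted p = 0.217). Dynlt1a, Dynlt1b, Dynlt1c and Dynlt1f are near-identical copies among which the counting had to divide reads, so values for any 1 of them are uncertain.

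Dynactin is the large cofactor that couples dynein to cargo and to its adaptors: Dctn1 (p150) holds the microtubule, Dctn2 and Dctn3 form the shoulder with it, and Dctn4, Dctn5 and Dctn6 cap the pointed end of its short actin-like filament. All 6 rose in both genotypes, with a median of 1.65 in WT and 1.72 in P278KY mice. Dctn3 read 113, 169, 92.8 and 80.7 CPM in Cre WT and 21.8, 13.1, 19.7, 21.5 and 10.2 CPM in NoCre WT (2.72, SE 0.359, adjusted p = 2.49e-06); its promoter is the third printed earlier. Dctn5 read 123, 138, 96.0 and 86.8 CPM against 19.6 to 28.6 CPM (2.10, SE 0.180, adjusted p = 5.73e-09), and Dctn2 99.6 to 192 CPM against 25.6 to 43.7 CPM (1.98, SE 0.278, adjusted p = 3.94e-06). Those 3 subunits rose by 2.11, 1.65 and 2.40 in P278KY mice, again without overlap. Dctn4 and Dctn6 rose by 0.95 (SE 0.189) and 1.33 (SE 0.216) in WT and by 0.66 and 1.61 in P278KY mice.

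Dctn1, mutated in Perry syndrome and in a motor neuronopathy, read 233, 272, 107 and 122 CPM in Cre WT and 45.4, 42.7, 35.6, 132 and 114 CPM in NoCre WT (1.31, SE 0.340, adjusted p = 0.00253). NoCre WT replicates 4 and 5, both of pool 2, read as high as the Cre WT libraries of pool 2, and within pool 2 the difference was 0.28 (adjusted p = 0.64). Without those replicates, a choice made after seeing the data, it was 2.13 (adjusted p = 4.72e-06). In P278KY mice Dctn1 read 139, 113 and 166 CPM against 34.2 to 43.3 CPM (1.78, SE 0.344, adjusted p = 0.000211). The filament and capping proteins that complete dynactin, listed separately (Actr1a, Actr1b and Actr10 with the capping proteins), were called higher for 6 of 6 genes in each genotype, with medians of 1.34 and 1.36; Capzb, the beta capping subunit, rose by 1.91 and 1.75.

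The proteins that link these motors to their cargo or steer them were followed in a list of 57 further genes, chosen by function. In WT mice 34 were called higher and 9 lower, and in P278KY mice 31 and 7, with medians of 0.63 and 0.75. Of all genes tested, 28.5% were called higher and 31.2% lower in WT mice, and 28.2% and 31.2% in P278KY mice. Mapk8ip2, a scaffold that binds kinesin light chains, averaged 293 ± 37.2 CPM in Cre WT and 77.4 ± 10.2 CPM in NoCre WT (1.92, SE 0.161, adjusted p = 4.63e-09). Mapre3, a microtubule plus-end protein of neurons, averaged 460 ± 175 and 85.5 ± 29.2 CPM (2.43, SE 0.246, adjusted p = 5.22e-08). Arl8a, the small GTPase that recruits kinesin to lysosomes, rose by 1.93 in WT and 1.89 in P278KY mice.

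The groups of partners differed in their counts. All 6 mitochondrial adaptors were called in WT mice, 5 higher, and Trak2 was the 1 called lower: 28.2 ± 5.78 CPM in Cre WT against 135 ± 19.3 CPM in NoCre WT (-2.25, SE 0.206, adjusted p = 1.39e-08). Of 15 adaptors that activate dynein, 3 were called higher, 5 lower and 7 not called. The 53.3% called was near the 59.7% of all genes called in WT mice. Among them Hook3 and Bicd2 were lower in WT mice (-1.03, adjusted p = 0.00287, and -0.69, adjusted p = 0.00887). Of 4 dynein regulators, 3 were higher, including Pafah1b1, the Lis1 gene (1.24, SE 0.162), and Nde1 was lower. Of 18 adaptors of kinesin or of both motors, 11 were higher and 2 lower, and of 8 plus-end genes 6 were higher and none lower.

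Dynein 2, the motor of transport inside cilia, was represented by 2 genes that went opposite ways. Its heavy chain Dync2h1 fell by 1.04 in WT and 0.98 in P278KY mice, and its light intermediate chain Dync2li1 rose by 1.37 and 1.29. Of 6 further kinesins tested that fit none of these classes, 4 fell in WT mice (Kif6, Kif26a, Kifc2 and Kifc3), 3 fell in P278KY mice (Kif6, Kif9 and Kifc2) and none rose. The 66.7% and 50% called were near the 59.7% and 59.4% of all genes called. Kif26b was called in neither genotype. Kif27, a kinesin-4, was called lower in WT mice alone (-1.45, adjusted p = 0.022; -0.16, adjusted p = 0.808, in P278KY mice), and Kif16b, a kinesin-3 of endosomes, in neither.

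The mitotic kinesins, 12 genes that build the spindle, move chromosomes or close the midbody, included none called higher. Of 11 tested, 6 fell in WT mice (median of the 11, -1.60) and 7 in P278KY mice (median -2.12). Of all genes, 31.2% were called lower in each genotype. Only 8 of the mitotic kinesins passed the filter among the Cre libraries alone. Kif14, Kif15 and Kif18b were tested through their NoCre counts, so they could be called lower or not called, but hardly higher. Kif11, the bipolar motor that pushes spindle poles apart, read 1.68, 1.73, 1.19 and 2.71 CPM in Cre WT and 6.20, 4.96, 4.97, 3.59 and 5.02 CPM in NoCre WT (-1.44, SE 0.339, adjusted p = 0.00105). The groups did not overlap, and the P278KY value was -1.72 (SE 0.372, adjusted p = 0.000522). Kif18a, which damps chromosome movement, fell by 2.44 (SE 0.498) and 2.12 (SE 0.532). Kif14, needed for cytokinesis, was at 0.0430 to 0.330 CPM in Cre WT and 1.52 to 3.79 CPM in NoCre WT (-3.63, SE 0.881, adjusted p = 0.00135), and within pool 1 its adjusted p was 0.0619 (-2.91). Kif15 was called in P278KY mice (-4.12, SE 1.013, adjusted p = 0.00162), where Cre libraries held 0.0474 to 0.137 CPM, but not in WT mice (-1.60, adjusted p = 0.0814). Kif4, Kif18b and Kif20b were called lower in both genotypes, and Kif20a, Kif22, Kif23 and Kifc1 in neither. Summed CPM of 10 cycling cell markers were 3.70 to 23.8 in Cre and 15.8 to 104.6 in NoCre libraries; of the 9 tested, 5 were called lower in WT and 6 in P278KY mice, and their part in these values was not tested.

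The promoter of Kif11 is shown because promoters of mitotic genes often pair a CCAAT box with a cell cycle homology region. The box, CCAAT on either strand, was present in 7 of 11 mitotic kinesin promoters (63.6%) and in 33.8% of all promoters; the region, TTTGAA on either strand, was present in 5 of 11 (45.5%) and in 16.0% of all. Of the mitotic kinesins, Kif11, Kif14 and Kif22 held both motifs together, and Kif22 was called in neither genotype. Kif26b and Kif27, which are not mitotic kinesins, also held both. The Kif11 window, chr19:37376132-37376381 on the plus strand (RefSeq, GRCm38.p6), is printed with both motifs in capitals. The CCAAT box, on the opposite strand, lies 45 bases before the start and the other motif, also on the opposite strand, 19 bases before it.
Kif11: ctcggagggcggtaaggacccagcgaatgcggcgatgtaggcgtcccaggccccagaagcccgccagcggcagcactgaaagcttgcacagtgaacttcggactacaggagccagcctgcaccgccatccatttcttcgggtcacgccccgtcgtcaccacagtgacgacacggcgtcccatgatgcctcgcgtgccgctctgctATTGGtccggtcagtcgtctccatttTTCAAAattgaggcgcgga
These counts describe the letters of the windows, and no binding was measured.

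The levels of different genes can be compared only per length, here as TPM. For genes with several transcripts that length is itself an estimate, and the order given here depends on it. In Cre WT it was 995 to 1079 bases for Klc2 and 2360 to 3356 bases for Kif1b. In Cre WT libraries Klc2 was highest of the family at 876 ± 216 TPM (n = 4), followed by Dynlrb1 (690 ± 44.2), Klc1 (602 ± 116) and Kif1b (590 ± 204). The ranges of these 4 overlapped between neighbours in that order, with Klc2 at 590 to 1103 TPM and Kif1b at 389 to 871 TPM. Kif5c (341 ± 50.1) came next, ahead of Dynlt3, Dynll1, Kif1a, Dctn3 and Kif5a at 183 to 285 TPM. In the NoCre WT libraries the highest was Kif1b (524 ± 506, n = 5, with its high library), followed by Klc2 (152 ± 55.1) and Dynlrb1 (136 ± 55.4). Kif5a and Kif5b, at 116 ± 39.4 and 110 ± 50.4 TPM there, lay within 1 SD of each other, and Kif5c stood at 97.8 ± 15.9.

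The deposited tables also give each gene a length in bases, averaged over its annotated transcripts with their estimated abundance as weights, which moves when the mix of transcripts moves. It varied enough to be tested for 41 motor genes, by limma on log2 length over all genes tested. Of these, 3 were called between Cre and NoCre in WT and 3 in P278KY mice, beside 7.13% and 3.94% of all genes. Kif3a read 2383, 2296, 2506 and 2474 bases in Cre WT and 2709, 2721, 2697, 2627 and 2635 bases in NoCre WT, with no overlap (log2 ratio -0.15, SE 0.022, adjusted p = 0.000869). It read 2356 to 2452 bases in Cre P278KY and 2680 to 2752 bases in NoCre P278KY (-0.17, adjusted p = 0.00124). Kif2a was also shorter in both genotypes, at 2683 ± 220 against 3310 ± 139 bases in WT (-0.31, adjusted p = 0.0448) and 2593 ± 117 against 3340 ± 448 bases in P278KY mice (-0.36, adjusted p = 0.0411).

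Klc1, the light chain with many spliced tails, was longer in Cre P278KY (2164, 2137 and 2107 bases) than in NoCre P278KY (1823 to 2018 bases; 0.14, SE 0.030, adjusted p = 0.0142). In WT mice it was 2147 ± 15.3 against 2084 ± 77.6 bases and was not called (0.04, adjusted p = 0.416). Kif18a was called in WT mice (-0.65, adjusted p = 0.00831) and not in P278KY mice (-0.15, adjusted p = 0.718), but the interaction of genotype with Cre called no motor gene for length. Without Cre P278KY replicate 1 or replicate 2, 1 motor gene was called for length in P278KY mice.

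**Figure D4:**
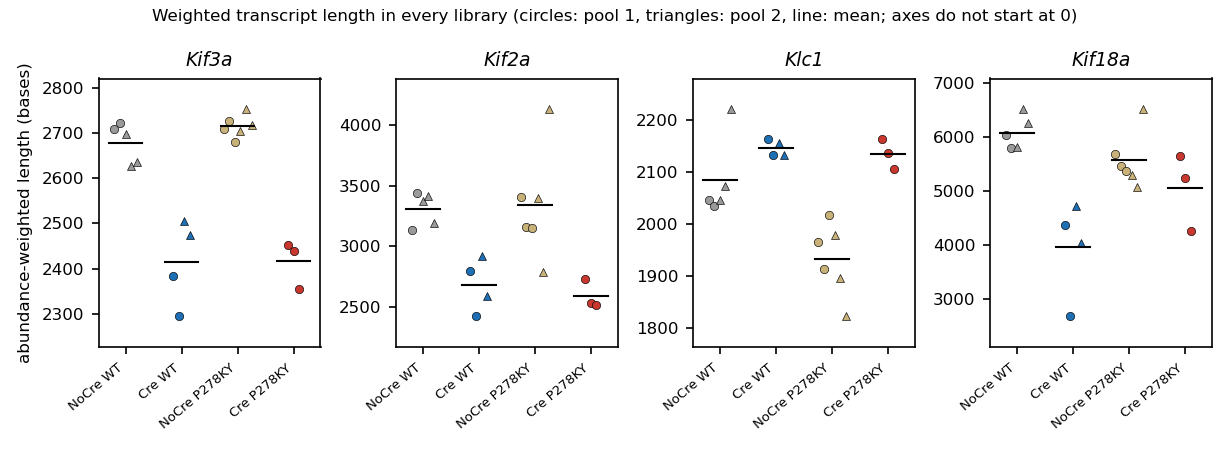
Abundance-weighted transcript length (bases) of Kif3a, Kif2a, Klc1 and Kif18a in each library by group, with points for libraries and lines for means. Kif3a lies at 2296 to 2506 bases in all 7 Cre libraries and at 2627 to 2752 bases in all 11 NoCre libraries.

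With all 7 Cre libraries fitted alone and no further term, 59 motor genes were tested and none was called between P278KY and WT, beside 2.32% of all genes (edgeR's quasi-likelihood test); 2 were higher and 3 lower at an unadjusted p under 0.05, and DESeq2 also called none. The median of the 59 was -0.03. Gars itself, in the same fit, read 298 ± 21.5 CPM (n = 3) in Cre P278KY and 148 ± 26.5 CPM (n = 4) in Cre WT (log2 fold change 1.01, adjusted p = 0.0219). In the NoCre libraries none of 64 motor genes was called, beside 0.0233% of all genes, with 1 higher and 4 lower at an unadjusted p under 0.05, and none by DESeq2. The interaction of genotype with Cre also called none of 64, beside 0.654% of all genes, with 1 higher and 3 lower unadjusted, and none by DESeq2. A difference that missed the threshold is not shown to be absent: with 3 and 4 libraries the 95% interval of Kif5a was -0.25 to 0.48 and that of Dync1h1 -0.64 to 0.19 on the log2 scale.

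Every Cre P278KY library is in pool 1, so Cre WT libraries of both pools are set beside them for genes called in a fit that takes the pool into account. On the scale of the 7 Cre libraries, Dynlrb1 read 193, 163 and 213 CPM in Cre P278KY, 403 and 373 CPM in Cre WT of pool 1, and 172 and 248 CPM in Cre WT of pool 2. Dctn1 read 156, 123 and 176 CPM in Cre P278KY, a mean of 261 CPM in Cre WT of pool 1, and 115 and 140 CPM in Cre WT of pool 2. Dctn3 read 77.2, 98.9 and 80.1 CPM, then 121 and 170 CPM, then 99.7 and 92.1 CPM. In each of these the mutant libraries lay below the pool 1 WT libraries and in or near the range of the pool 2 WT libraries.

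Within pool 1 (n = 3 against 2), 57 motor genes were tested, 4 were called lower in P278KY and none higher, beside 9.10% of all genes called. The 4 were Dynlrb1 (-1.04, SE 0.194, adjusted p = 0.00847), Dynll2 (-1.05, SE 0.234, adjusted p = 0.0188), Dctn1 (-0.78, SE 0.205, adjusted p = 0.0355) and Dctn3 (-0.77, SE 0.214, adjusted p = 0.0451). With the pool as a term, Dync1li1 (-0.60, adjusted p = 0.0413) joined them and Kif5b was higher (0.72, adjusted p = 0.0444): 1 higher and 5 lower of 59, beside 11.4% of all genes. Kif5b read 482, 463 and 481 CPM in Cre P278KY, 352 and 226 CPM in Cre WT of pool 1, and 381 and 393 CPM in pool 2. The interaction called 1 motor gene within pool 1 (Dynlrb1, -1.37, adjusted p = 0.0193), beside 2.37% of all genes, and none with the pool as a term, beside 0.759% of all genes. The share of motor genes called was close to that of all genes in these fits. Of the 57 partner genes, 1 was called in the fit of all 7 Cre libraries: Ccdc88c averaged 16.4 ± 0.271 CPM in Cre P278KY and 39.8 ± 5.97 CPM in Cre WT (-1.28, SE 0.191, adjusted p = 0.00752). Leaving out any 1 of the Cre P278KY libraries ended that call, with adjusted p of 0.0518 to 0.0644 at nearly the same size. Within pool 1, 3 partner genes were called lower and none higher, and with the pool as a term 2 were higher and 3 lower.

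The pool coefficient itself, which among Cre libraries rests on the 4 Cre WT libraries, was called for 5 of 59 motor genes, all lower in pool 2, beside 5.78% of all genes called lower; in either direction 1769 of 14717 genes were called. They were Dynll2 (-1.31), Dctn1 (-1.04), Dynlrb1 (-0.89), Dync1li1 (-0.71) and Dctn2 (-0.70). Summed CPM of 10 oligodendrocyte markers were 766 and 1211 in Cre WT of pool 1, 3701 and 4162 in Cre WT of pool 2, and 716, 802 and 1787 in Cre P278KY. Those of 9 vascular markers were 32.7 and 32.7, then 159 and 219, and 31.9, 33.8 and 67.4, and those of 9 cholinergic markers 2966 and 2671, then 1756 and 1575, and 1722, 1537 and 1348. Their part in the difference was not tested, and within pool 2 the genotypes cannot be compared.

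**Figure D5:**
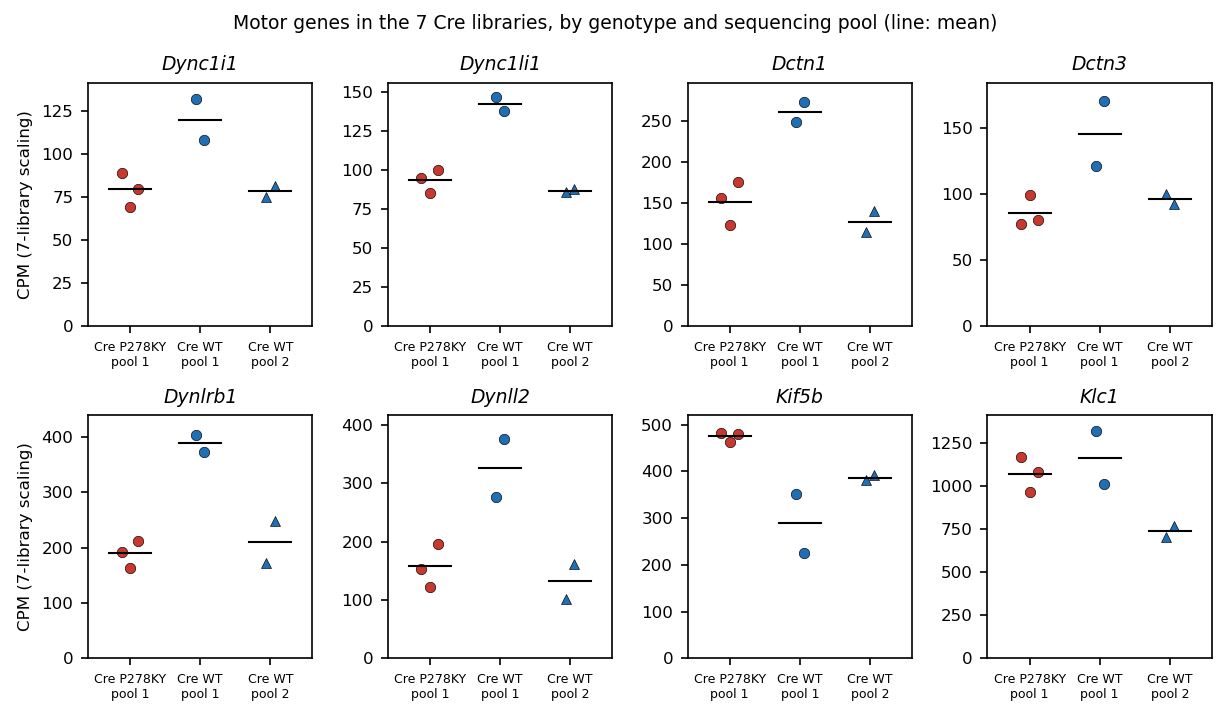
CPM of 8 motor genes in the 7 Cre libraries, on the scale of those libraries, for Cre P278KY (pool 1), Cre WT of pool 1 and Cre WT of pool 2; each point is a library. For Dynlrb1 the mutant libraries (163 to 213 CPM) lie below the pool 1 WT libraries (373 and 403 CPM) and overlap the pool 2 WT libraries (172 and 248 CPM).

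Genes that share a location need care, since the strand used in counting is not given in the sources used here. Klc1 overlaps Xrcc3, Kif2a overlaps Dimt1, Dctn3 overlaps Il11ra1, Kif18a overlaps Mettl15, Kif7 overlaps Ticrr and Kif17 overlaps Sh2d5. Antisense RNAs are annotated at Dync1h1, Dync1i1, Dctn1, Dctn5, Dync1li2, Klc2, Kif5b and Kif3c. If strand was not used, reads from the stretch that both partners share could not be told apart. How much of each gene is shared was not measured.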

How the data were processed

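Ribosome-associated RNA from 18 spinal cord libraries was sequenced. Per the submitters' processing notes, Bowtie2 (2.2.0) and RSEM (1.2.12) were used; the genome build is not given in the sources used here. Per the file headers, each deposited table holds, per gene, RSEM expected counts, TPM and a transcript length, in bases, weighted by abundance. TPM enters here only for levels between genes and for shares. The members and lists were chosen with earlier results of these data known.

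Expected counts were rounded, genes filtered with filterByExpr (minimum count 10) and libraries scaled by TMM. Quasi-likelihood tests (edgeR 4.0.16, R 4.3.3) used 4 group means over 18 libraries, or the 7 Cre libraries for the genotype difference there, with Benjamini-Hochberg adjustment over all genes tested, two-sided, at 0.05. DESeq2 (1.42.0) was an alternative. Lengths were tested with limma (3.58.1) on log2 values. Shares were compared by exact two-sided permutation tests; for the Cre genotype difference the smallest possible p is 0.0286. On simulated counts, the enrichment test recovered 24% of genes changed 2-fold and 82% of those changed 4-fold, and the Cre genotype test 9% and 69%. Few genes were changed in that simulation, whereas 59.7% of all genes were called in the WT enrichment. Its recovery for the enrichment therefore does not carry over to these data. No 2 libraries held the same values. Replicate numbers follow the order of submission. Pools were inferred from index sequences and sample numbers. Mouse names carry a number whose meaning is not given and which some libraries of a group share, so p-values measure the spread between these libraries. Named genes were the core transport members, the 6 largest called rises and falls per comparison, members of paralogue sets and the 4 partners with the smallest adjusted p; others are named for their role, after their values were seen.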

Additional observations from a re-analysis of the deposited data

Results flagged for a closer look

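Among the 28 core motor genes, 84 sets of 4 to 6 libraries were examined for a single library far from the rest, and 4 stood apart; about 1 in 20 such sets would by chance. Kif1b read 3393 CPM in NoCre WT replicate 3 and 850 to 1081 CPM in the other 4 NoCre WT libraries. The other 3 were all in NoCre P278KY replicate 6. Dync1h1 read 308 CPM there and 382 to 410 CPM in the other 5 libraries, Dctn2 read 8.89 CPM against 25.1 to 33.9 CPM, and Dctn3 read 3.49 CPM against 17.9 to 24.3 CPM. Without that library the P278KY enrichment was 1.11 for Dync1h1 (adjusted p = 0.000518), 2.27 for Dctn2 (adjusted p = 4.62e-08) and 1.95 for Dctn3 (adjusted p = 1.16e-06).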

How the results depend on the processing

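Of 41 named genes followed in the WT enrichment, 1147 of 1187 values under other settings stayed on their side of the threshold, 18 of them with the opposite sign and no call, 34 lost the call and 6 gained it; in P278KY mice the counts were 1117 of 1147, 6, 27 and 3. No called gene reversed. Counts of motor genes called moved as follows. WT enrichment: 11 lower with library size only, 16 higher with library size without ribosomal RNA genes and 9 lower within pool 2. P278KY enrichment: 17 higher with library size without ribosomal RNA genes. The median of all genes, -0.12 in WT and -0.13 in P278KY mice, became 0.20 in WT with library size only, with 59.1% of calls higher, and -0.51 and -0.55 with ribosomal RNA genes left out, with 29.4% and 28.5% higher. Relative factors (RLE) gave medians of -0.26 and -0.25. Cre genotype difference: 4 lower within pool 1, and 1 higher and 5 lower with the pool as a term; interaction: 1 lower within pool 1. Leaving out each library in turn gave 24 to 26 higher and 18 to 22 lower in WT, 24 to 29 higher and 14 to 22 lower in P278KY, 0 called between genotypes or in the interaction, and for weighted length 2 to 4 in WT and 1 to 3 in P278KY mice. The causes were not tested.

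Libraries of different groups that share the number in the mouse name did not, as a set, deviate together (12 pairs, r from -0.15 to 0.26, median -0.01). Pairs within a group were not examined, so what the number stands for stays unknown. With that number as a replicate block in edgeR's test, 1 of 59 motor genes, Klc1, was called higher between Cre genotypes (0.61, adjusted p = 0.0407). Of 57 partner genes, 3 were called higher and 6 lower, beside 11.3% of all genes called in that fit. Genes under about 1 CPM, such as Klc3 and Kif15, rest on few reads, and 3 against 4 libraries limit the genotype comparison.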
